A study of Mus musculus with 16 samples.

Results

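The genes described here are 8 mouse genes taken as markers of neurons making dopamine or noradrenaline in and around the periaqueductal gray: Th, Slc6a3, Chrna6, Drd2, Aldh1a1, Dbh, Slc6a2 and Phox2a. They were chosen by symbol, and all 8 were found among the 38924 genes of the count files. Read counts came from polyA RNA sequencing of the periaqueductal gray of male mice, the midbrain region around the cerebral aqueduct. The 4 groups, of 4 libraries each, were mice labelled RGSz1 KO and given morphine (KO morphine), mice with the same label and no treatment (KO naive), wild-type mice given morphine (WT morphine) and untreated wild-type mice (WT naive). Each library pooled tissue punches of 2 animals. Neither the dose, the duration nor a vehicle group is stated in the labels, so morphine cannot be told apart from the handling that went with it, and the labels do not say how the knockout was made.

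Catecholamines are made from tyrosine in a chain of steps. Tyrosine hydroxylase, from Th, makes the dopamine precursor, aromatic amino acid decarboxylase turns it into dopamine, and dopamine beta-hydroxylase, from Dbh, turns dopamine into noradrenaline. Dopamine neurons lie in the ventral periaqueductal gray and the adjoining dorsal raphe and ventral tegmental area. Noradrenaline neurons lie in the locus coeruleus, behind the periaqueductal gray at its caudal end. Th is shared by both kinds of neuron, the dopamine transporter gene Slc6a3 marks dopamine neurons, and Dbh, the noradrenaline transporter gene Slc6a2 and the transcription factor gene Phox2a mark noradrenaline neurons.

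The proximal promoters of Th and Dbh are shown because these genes encode the enzyme both neuron kinds share and the one that sets noradrenaline neurons apart. The windows, from RefSeq on GRCm38.p6, run from 250 bases before to 50 bases after the annotated start and read 5′ to 3′ on the strand of the gene. Capitals mark the homeodomain core ATTA on either strand and the cAMP response element TGACGTCA.
Dbh, chr2:27165257-27165556, plus strand: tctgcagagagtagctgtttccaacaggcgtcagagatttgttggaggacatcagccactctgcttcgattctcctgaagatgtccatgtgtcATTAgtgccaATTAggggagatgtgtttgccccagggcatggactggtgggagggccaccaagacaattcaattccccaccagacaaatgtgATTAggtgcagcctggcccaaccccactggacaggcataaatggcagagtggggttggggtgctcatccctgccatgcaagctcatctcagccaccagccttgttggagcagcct
Th, chr7:142899946-142900245, minus strand: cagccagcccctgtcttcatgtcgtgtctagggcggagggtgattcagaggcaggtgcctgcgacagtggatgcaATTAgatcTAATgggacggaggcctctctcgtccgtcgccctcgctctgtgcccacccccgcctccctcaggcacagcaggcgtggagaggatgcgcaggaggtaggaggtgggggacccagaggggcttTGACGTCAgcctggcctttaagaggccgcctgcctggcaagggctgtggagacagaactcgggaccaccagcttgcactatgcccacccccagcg
The Dbh window held 3 ATTA matches, whose first bases lay at -157, -147 and -65 from the start. Of the 32851 promoter windows, 58.0% held at least 1 match, and 6584 held at least 3. The Th window held 2, at -175 and -167, where 34.1% of windows held at least 2, and its TGACGTCA began at -45. TGACGTCA occurred in 1.79% of all windows, on both strands because it is its own reverse complement, and no match overlapped an ATTA core. Of the 8 genes 6 had a window, and Chrna6 and Slc6a2 had none. Of those 6, TGACGTCA was found only in Th.

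Totals over genes ranged from 19.1 M to 55.0 M counts a library, and 18111 genes had enough counts to be tested. Rgs20, which encodes RGSz1, stood at 12.1 ± 0.67 CPM in KO morphine, 12.6 ± 0.95 in KO naive, 13.1 ± 1.04 in WT morphine and 12.8 ± 0.82 in WT naive libraries (mean ± SD, n = 4; CPM, counts per M counts of the library, scaled between libraries). The gene total did not separate the genotype labels, and which part of the gene was deleted is not stated. A genotype direction below is a direction between libraries labelled KO and WT.

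Levels of the 8 genes spanned a wide range. Per kilobase of merged exon, Aldh1a1 averaged 24.7 ± 3.97 CPM over the 16 libraries (SD, n = 16), Th 9.56 ± 2.56, Drd2 7.56 ± 0.72, Slc6a3 1.46 ± 0.34 and Chrna6 1.11 ± 0.39. The noradrenaline genes were lower, with Dbh at 0.52, Slc6a2 at 0.28 and Phox2a at 0.02 CPM per kilobase. The lowest library for Aldh1a1 (18.3) lay above the highest for Th (13.4), and the lowest for Drd2 (6.12) above the highest for Slc6a3 (2.12). The ranges of Th and Drd2 overlapped, as did those of Slc6a3 and Chrna6. Of the 8 genes, 7 passed the filter on low counts. Phox2a did not and was left untested.

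Dbh and Slc6a2 were near 0 in most libraries and high in 3, all from morphine-treated mice. Dbh encodes the noradrenaline-forming enzyme (chromosome 2, 27165233 to 27183200, plus strand, GRCm38). Its read counts in replicates 1 to 4 were 0, 322, 1 and 59 in KO morphine and 6, 1, 2 and 0 in KO naive libraries. They were 4, 1, 149 and 5 in WT morphine and 0, 14, 5 and 11 in WT naive libraries. Thus KO morphine 2, WT morphine 3 and KO morphine 4 stood apart, while the other 5 morphine libraries lay within the range of the naive ones. These 3 libraries held 91.4% of the 580 Dbh counts, and KO morphine 2 alone held 55.5%. On the scaled level, KO morphine 2 had 17.0 CPM of Dbh, 6.08 times WT morphine 3 (2.80 CPM), and KO morphine 4 had 1.52 CPM. No other library exceeded 0.27 CPM. Where the Dbh count was 0, the limit that 3 counts would give was 0.0658 CPM in KO naive 4, 0.0949 in KO morphine 1 and 0.113 in WT naive 1.

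Slc6a2, which takes noradrenaline back into the neuron (chromosome 8, 92960079 to 93001667, plus strand), marked out the same libraries. Counts in replicates 1 to 4 were 0, 404, 1 and 73 in KO morphine and 8, 1, 0 and 2 in KO naive libraries. They were 3, 2, 164 and 4 in WT morphine and 0, 21, 13 and 15 in WT naive libraries. The highest count outside the 3 libraries was 21, or 0.41 CPM. Dbh made up 44.4% of the counts of both genes together in KO morphine 2 (exact Clopper-Pearson 95% interval 40.7 to 48.1%), 47.6% in WT morphine 3 (42.0 to 53.3%) and 44.7% in KO morphine 4 (36.0 to 53.6%). The 3 intervals overlapped, while the levels of both genes differed several-fold between these libraries. The intervals cover counting error only.

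Among the other 13 libraries the pair still varied together. There Pearson's r of Dbh and Slc6a2 was 0.803 (permutation p = 0.0012) and Spearman's rho 0.769 (permutation p = 0.0031) over log2 CPM with group means subtracted, or r = 0.685 without the 2 libraries farthest from the median of Dbh. After Benjamini-Hochberg adjustment over 5 pairs the permutation p values were 0.0058 and 0.0156. The same libraries gave r = -0.038 for Dbh with Th (permutation p = 0.90, adjusted 0.902; rho = 0.115, permutation p = 0.71, adjusted 0.919).

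Phox2a, a homeodomain factor needed for the locus coeruleus and also for the oculomotor and trochlear motor nuclei (chromosome 7, 101818313 to 101822726, plus strand), had 16 counts in all. KO morphine 2 had 8 of them, KO morphine 4 had 2, and 6 libraries had 1 each. The other 8 libraries had none, so its group differences were not detectable at this depth. Inppl1 overlaps Phox2a on the other strand, and the kit does not mark strand, so even these few counts may hold reads of that gene.

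**Figure D1:**
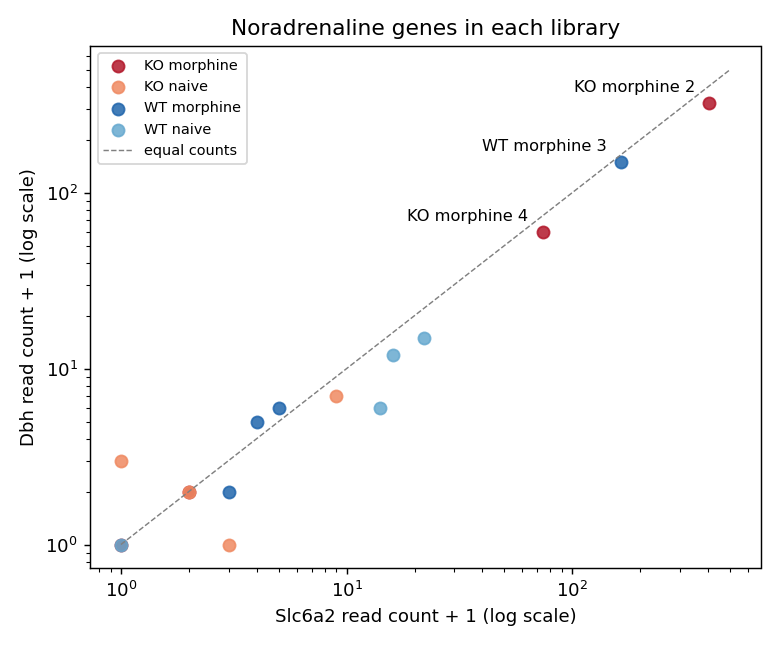
Read counts of Dbh (vertical, log scale) against Slc6a2 (horizontal, log scale), each plus 1, one point a library, coloured by group; the dashed line marks equal counts. KO morphine 2 (322 and 404 reads), WT morphine 3 (149 and 164) and KO morphine 4 (59 and 73) lie far up the line, and points at the lower left overlap.

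Group differences of Dbh and Slc6a2 rested on those libraries. In the KO morphine against KO naive comparison the fitted log2 fold change was 6.31 ± 2.00 (SE) for Dbh and 6.39 ± 2.01 for Slc6a2, neither past the threshold (adjusted p = 0.0629 and 0.0610; p values are from the edgeR quasi-likelihood fit, Benjamini-Hochberg adjusted across every tested gene). Without KO morphine 2 the values were 3.45 and 3.48 (edgeR adjusted p = 0.304 and 0.296). DESeq2's Wald test did call both in the full set (adjusted p = 0.00532 and 0.00402), while limma-voom gave 3.03 and 3.07 and called neither (adjusted p = 0.410 and 0.430). In WT morphine against WT naive libraries they were 2.34 ± 1.81 and 1.77 ± 1.73 (edgeR adjusted p = 0.502 and 0.608), and without WT morphine 3 both turned negative, -0.70 and -1.53. Averaged over genotypes, Dbh was called higher with morphine (4.33 ± 1.37, edgeR adjusted p = 0.0479), a call lost in 14 of 16 fits that left out 1 library, with 2.81 the lowest value, without WT morphine 3 (edgeR adjusted p = 0.408), and 2.89 without KO morphine 2 (edgeR adjusted p = 0.116). It was also lost with limma-voom (2.15, adjusted p = 0.336). Exact permutation tests of 4 against 4 libraries gave p of at least 0.171 for both genes in the 4 pairwise comparisons (two-sided).

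Th was higher on average in the morphine libraries, and passed the test in edgeR only with both genotypes averaged. Th, the first and rate-limiting enzyme of the chain (chromosome 7, 142892752 to 142931128, minus strand), had 20.2, 31.7, 23.5 and 31.8 CPM in KO morphine libraries 1 to 4 and 24.7, 13.9, 15.1 and 13.2 CPM in KO naive libraries. It had 24.4, 28.9, 24.0 and 27.9 CPM in WT morphine and 26.0, 15.3, 18.8 and 22.3 CPM in WT naive libraries. In each genotype the highest naive library, KO naive 1 or WT naive 1, overlapped the morphine group, and the other naive libraries lay below every WT morphine library or, among KO, every KO morphine library. The means were 26.8 ± 5.82 CPM in KO morphine and 16.7 ± 5.39 in KO naive libraries (SD, n = 4 each), and 26.3 ± 2.45 in WT morphine and 20.6 ± 4.62 in WT naive libraries. The log2 fold change was 0.67 ± 0.22 in KO (edgeR adjusted p = 0.0759) and 0.36 ± 0.22 in WT libraries (edgeR adjusted p = 0.384), and neither passed. Averaged over genotypes it was 0.52 ± 0.16 and passed (edgeR adjusted p = 0.0398), but the call was lost in 11 of the 16 fits without 1 library (up to 0.0817). With KO morphine 2, KO morphine 4 and WT morphine 3 left out, the KO value was 0.37 (edgeR adjusted p = 0.539) and the averaged one 0.39 (edgeR adjusted p = 0.217). Without KO naive 1 the KO value became 0.93 and passed (edgeR adjusted p = 0.0102), and limma-voom and DESeq2 also called it in the full set (adjusted p = 0.0454 and 0.0273).

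Slc6a3, the transporter that takes dopamine back up (chromosome 13, 73536747 to 73578672, plus strand), was higher with morphine in the KO libraries. Its levels were 5.38, 4.65, 5.13 and 7.32 CPM in KO morphine and 4.11, 3.51, 3.85 and 3.60 CPM in KO naive libraries. They were 5.90, 6.33, 5.18 and 5.89 CPM in WT morphine and 6.80, 3.71, 4.56 and 4.50 CPM in WT naive libraries. Every KO morphine library exceeded every KO naive one. For 17.1% of tested genes the groups of that comparison did not overlap. The exact permutation test of the KO groups gave p = 0.0286, its smallest possible value, and 0.457 after adjustment over 32 tests. In WT libraries WT naive 1 lay above the whole morphine group. The log2 fold change was 0.59 ± 0.16 in KO (edgeR adjusted p = 0.0249) and 0.27 ± 0.16 in WT libraries (edgeR adjusted p = 0.359). The KO call was lost without KO naive 2, KO naive 4 or KO morphine 4 (edgeR adjusted p = 0.0789, 0.0672 and 0.108). Averaged over genotypes the difference was 0.43 ± 0.11 (edgeR adjusted p = 0.0138), a call kept in all 16 fits that left out 1 library (up to 0.0334). The averaged call was also kept with KO morphine 2, KO morphine 4 and WT morphine 3 all left out, while the KO call was lost. KO morphine 2, which led the noradrenaline genes, had the lowest Slc6a3 level of its group.

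Chrna6, a nicotinic receptor subunit found on dopamine and locus coeruleus neurons (chromosome 8, 27403212 to 27413944, minus strand), was also higher with morphine in the KO libraries. Its levels were 2.66, 6.24, 2.97 and 4.59 CPM in KO morphine and 2.31, 2.18, 1.73 and 2.52 CPM in KO naive libraries. They were 3.08, 3.63, 4.23 and 3.18 CPM in WT morphine and 3.53, 2.505, 2.23 and 4.13 CPM in WT naive libraries. The KO groups did not overlap (exact permutation p = 0.0286, adjusted 0.457 over 32 tests). The highest library of each morphine group, KO morphine 2 and WT morphine 3, was the one with the most Dbh. Over all 16 libraries, with group means subtracted, Chrna6 and Dbh gave r = 0.669 (permutation p = 0.004, adjusted over 21 pairs 0.0281). Spearman's rho was 0.562 (permutation p = 0.026, adjusted 0.0777). The 3 libraries high in Dbh stand apart, and r was 0.359 without KO morphine 2 and KO morphine 1, the farthest from the median of Chrna6. Among the 13 libraries outside those 3, where Dbh had at most 14 counts, Chrna6 and Dbh gave r = -0.198 (permutation p = 0.52, adjusted 0.902) and rho = -0.22 (permutation p = 0.47, adjusted 0.919). The log2 fold change was 0.89 ± 0.25 in KO (edgeR adjusted p = 0.0304) and 0.21 ± 0.24 in WT libraries (edgeR adjusted p = 0.667). The KO call was lost without KO morphine 2 (0.64, edgeR adjusted p = 0.0976), KO morphine 4, KO naive 1, KO naive 2 or KO naive 3. With KO morphine 2, KO morphine 4 and WT morphine 3 all left out, a setting chosen after the Dbh counts were seen, it was 0.34 ± 0.23 (edgeR adjusted p = 0.477), against 0.48 ± 0.18 for Slc6a3 (edgeR adjusted p = 0.182). Averaged over genotypes Chrna6 was at 0.55 ± 0.17 (edgeR adjusted p = 0.0389), a call lost in 9 of the 16 fits without 1 library (up to 0.0788) and without these 3 (0.22, edgeR adjusted p = 0.394).

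Drd2 and Aldh1a1 varied least. Drd2, the dopamine receptor that also serves as the autoreceptor of dopamine neurons (chromosome 9, 49340627 to 49408177, plus strand), ranged from 15.6 CPM in KO morphine 1 to 23.4 CPM in WT morphine 4. Its group means were 19.2 ± 2.47 CPM in KO morphine and 17.9 ± 0.44 in KO naive libraries, and 20.8 ± 1.83 in WT morphine and 19.1 ± 1.22 in WT naive libraries (SD, n = 4). The log2 fold change with morphine was 0.09 in KO (95% interval -0.08 to 0.26) and 0.13 in WT libraries (-0.04 to 0.29), both short of the threshold (edgeR adjusted p = 0.517 and 0.388).

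Aldh1a1, a retinaldehyde dehydrogenase of ventral dopamine neurons (chromosome 19, 20492715 to 20643465, plus strand), had 96.5, 111.6, 140.5 and 111.3 CPM in KO morphine and 131.2, 157.3, 128.3 and 142.9 CPM in KO naive libraries. It had 101.2, 135.3, 125.7 and 130.2 CPM in WT morphine and 125.7, 90.5, 92.0 and 134.2 CPM in WT naive libraries. Unlike Th and Slc6a3, it was lower on average with morphine in KO libraries, where 3 of 4 morphine libraries lay below all naive ones. The log2 fold change was -0.29 ± 0.15 in KO (edgeR adjusted p = 0.258) and 0.16 ± 0.15 in WT libraries (edgeR adjusted p = 0.595), and the interaction was -0.44 ± 0.21 (edgeR adjusted p = 0.423). Its close relative Aldh1a7 stood at 0.50 to 1.32 CPM. How reads matching both were counted is not given in the sources used here, and genes on the other strand overlap Aldh1a1, so its level is uncertain to that extent.

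**Figure D2:**
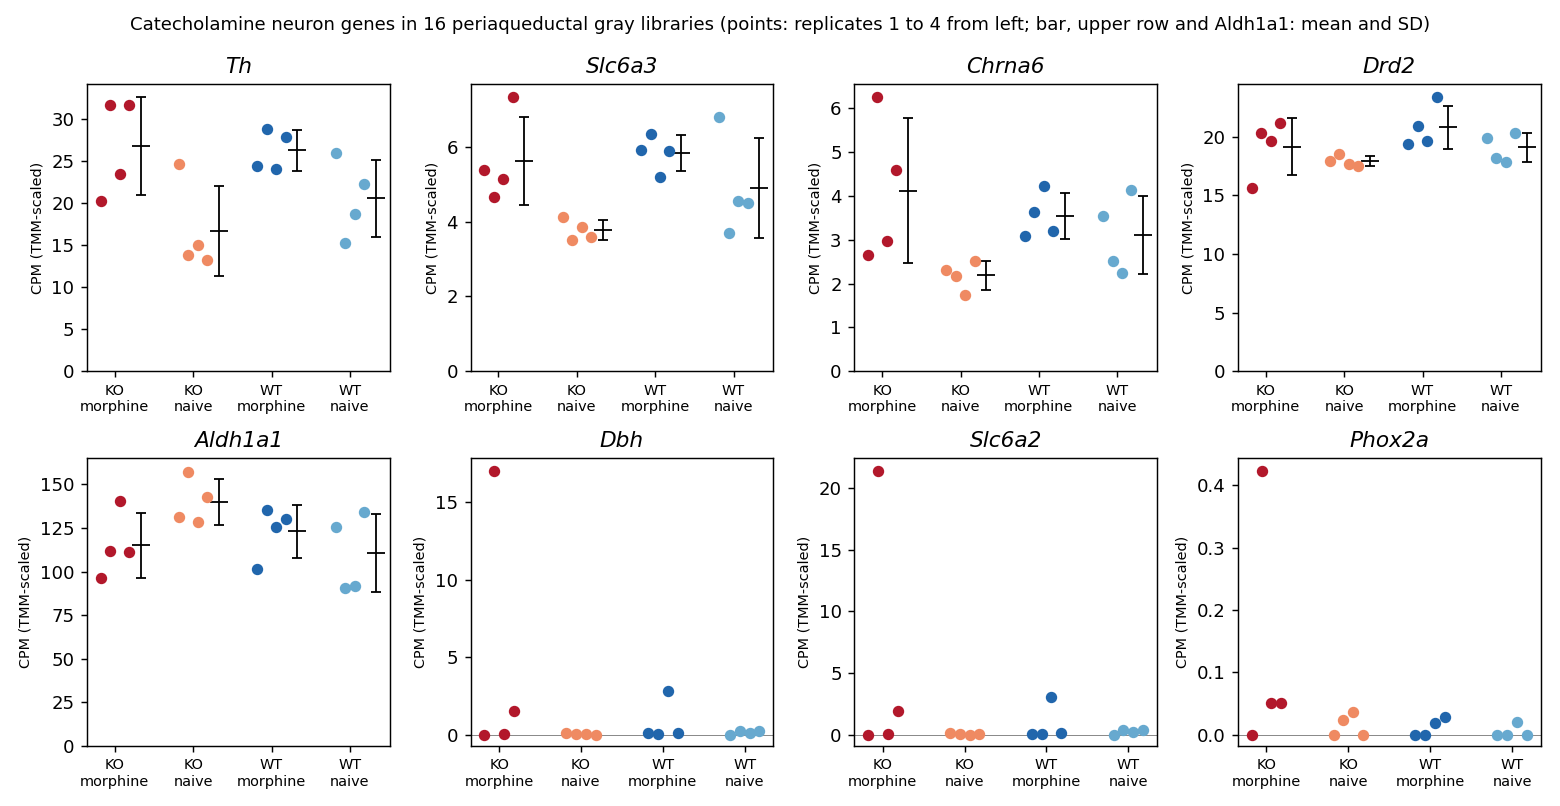
CPM of each gene (vertical axis, linear, one scale per panel) in the 16 libraries; within each group the points are replicates 1 to 4 from left to right, and the bars, drawn for Th, Slc6a3, Chrna6, Drd2 and Aldh1a1, are the mean and SD. Slc6a3 and Chrna6 do not overlap between KO morphine and KO naive libraries, and Dbh and Slc6a2 are set by KO morphine 2 (17.0 and 21.4 CPM) and WT morphine 3 (2.80 and 3.08 CPM).

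Taking the 7 tested genes together, 2 rose and 0 fell in KO morphine against KO naive libraries (Slc6a3 and Chrna6), where 11.5% of all tested genes were called, 5.67% higher and 5.83% lower. In WT morphine against WT naive libraries 0 of 7 passed in edgeR, DESeq2 or limma-voom, and 0 had an unadjusted p under 0.05, where 4.41% of tested genes were called, 2.34% higher and 2.07% lower. Averaged over genotypes 4 rose and 0 fell (Th, Slc6a3, Chrna6 and Dbh rose), beside 17.1% of tested genes called, 9.02% higher and 8.03% lower. The median log2 fold change of the 7 was 0.67 in KO and 0.27 in WT libraries, and over all tested genes it was -0.0003 and -0.0068. The difference between the genotypes in their morphine response did not pass for any of the 7 in edgeR, DESeq2 or limma-voom. It had unadjusted p values of 0.0671 for Chrna6 and 0.0555 for Aldh1a1 as the smallest in edgeR, and over all genes edgeR called 0 interactions, with 2200 at an unadjusted p under 0.05 and 107 calls by DESeq2.

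The genotype comparisons called 0 of the 7 genes in edgeR, DESeq2 or limma-voom, beside 0.906% of tested genes called in KO naive against WT naive (0.442% higher, 0.464% lower) and 0.53% in KO morphine against WT morphine libraries (0.254% higher, 0.276% lower). The difference between KO and WT averaged over treatments also called 0 of the 7 in these tools, with 0 at an unadjusted p under 0.05, beside 1.53% of tested genes (0.685% higher, 0.845% lower). No member separated KO morphine from WT morphine libraries, where 5.27% of tested genes did not overlap, none separated KO naive from WT naive libraries, where 8.13% did not, and none separated WT morphine from WT naive libraries, where 11% did not. In naive libraries Slc6a3 was at -0.36 ± 0.16 (edgeR unadjusted p = 0.0379, adjusted 0.346) and Aldh1a1 at 0.34 ± 0.15 (unadjusted p = 0.0381, adjusted 0.346), the 2 genes with an unadjusted p under 0.05. Chrna6 was at -0.48 ± 0.25 and Th at -0.28 ± 0.22 in the same comparison. Under morphine 0 of the 7 had an unadjusted p under 0.05, with Th at 0.03 (95% interval -0.45 to 0.51), Slc6a3 at -0.03 (-0.36 to 0.30) and Chrna6 at 0.20 (-0.31 to 0.72). The morphine comparison in KO libraries and the naive genotype comparison share the KO naive libraries, so their opposite signs are not independent.

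**Figure D3:**
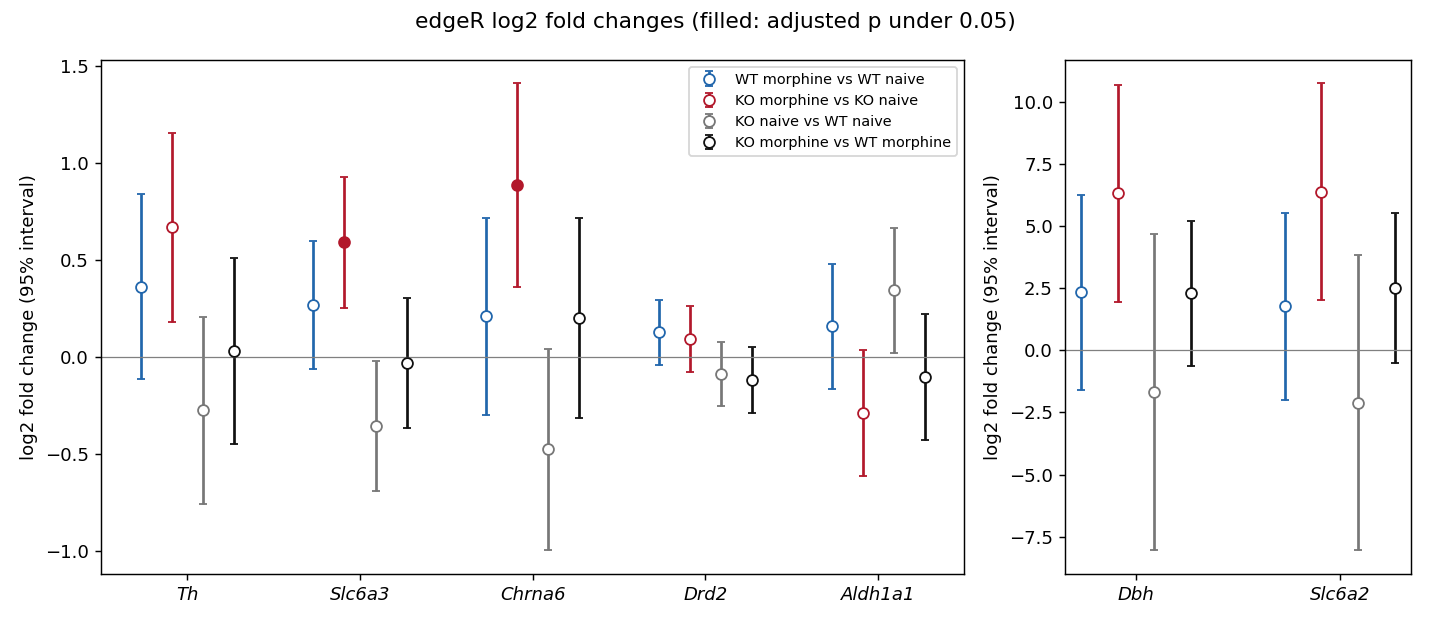
edgeR log2 fold changes (vertical axis) with 95% intervals for 7 genes in 4 comparisons, distinguished by colour; filled points have an adjusted p under 0.05, and Dbh and Slc6a2 have their own scale. The 2 filled points are Slc6a3 (0.59) and Chrna6 (0.89) in KO morphine against KO naive.

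Other genes of the catecholamine chain, some of them also expressed by serotonin neurons, moved with morphine in the KO libraries. Of 14 tested genes of synthesis, storage and breakdown, 7 rose and 2 fell (median 0.22), against 0 of 14 in WT libraries in edgeR, DESeq2 or limma-voom, where 1 had an unadjusted p under 0.05. Over all tested genes 11.5% were called in KO (5.67% higher, 5.83% lower) and 4.41% in WT libraries. These shares apply to the lists below as well. In edgeR the genotype by morphine interaction called 0 genes of this list or of those below. A call in KO without one in WT libraries therefore does not show that the genotypes differ in their response. Of the 14 genes, 5 had an unadjusted interaction p under 0.05. Gch1, which starts the making of the cofactor that Th needs, rose by 2.03 ± 0.47 on the log2 scale, and the decarboxylase gene Ddc by 1.92 ± 0.45. The monoamine oxidase genes Maoa and Maob rose by 0.24 ± 0.05 and 0.99 ± 0.20. Qdpr, which regenerates the same cofactor, fell by 0.40. The vesicular monoamine transporter gene Slc18a2, named after its values were seen, rose by 2.16 ± 0.53. The 7 higher calls became 3 without KO morphine 2 and 2 without KO morphine 4 or KO naive 2. With KO morphine 2, KO morphine 4 and WT morphine 3 left out, 0 of the 14 were called.

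Of 19 other genes of dopamine neurons, 3 of them (Slc18a2, Ddc and Gch1) already counted above, 10 rose and 0 fell with morphine in KO libraries (median 0.62), and 1 rose in WT libraries (median 0.37). Over all tested genes 5.67% were called higher in KO and 2.34% in WT libraries. In KO naive against WT naive libraries 0 of the 19 were called (median -0.46), beside 0.906% of tested genes. The homeodomain genes En1 (1.66 ± 0.33) and Lmx1b (1.62 ± 0.34), the vesicle protein gene Slc10a4 (2.19 ± 0.49), Sncg (0.56 ± 0.13), Gch1 and Ddc had the smallest p values. En1, Lmx1b, Slc10a4, Gch1, Ddc and Slc18a2 are also expressed by serotonin neurons. Pitx3, a factor of midbrain dopamine neurons named after its values were seen, rose by 1.01 ± 0.32 (edgeR adjusted p = 0.0488). It was under 1 CPM in every library, and its call was lost without any KO library but KO morphine 2. Npw, the precursor of neuropeptide W, rose in both genotypes, by 0.87 ± 0.25 in KO and 0.91 ± 0.24 in WT libraries, and was at or under 1.67 CPM throughout. Its WT call was lost without any WT library but WT morphine 4 (edgeR adjusted p up to 0.132), and its KO call without KO morphine 4 or KO naive 1, 3 or 4 (up to 0.0841). The 10 KO calls became 4 without KO morphine 4 or KO naive 2, 6 without KO naive 3 and 0 without the 3 libraries high in Dbh. With 2 KO morphine libraries then left, the log2 fold changes were 0.86 for Npw, 0.96 for Pitx3, 0.44 for Sncg, 0.95 for En1 and 1.30 for Slc10a4.

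Of 9 other tested genes of noradrenaline neurons, 2 rose with morphine in KO libraries, Maoa, which was counted above, and the neurofilament gene Prph (1.29 ± 0.37, edgeR adjusted p = 0.0426). The list median was 0.24. In WT libraries 0 of the 9 rose and 1 fell (median 0.06), beside 2.34% of tested genes called higher and 2.07% lower. Averaged over genotypes 2 rose and 2 fell, beside 9.02% of tested genes called higher and 8.03% lower. Prph is shared with motor and sensory neurons, and its call was lost without any KO library but KO morphine 1 (edgeR adjusted p up to 0.112). Pnmt, which makes adrenaline, had at most 4 counts in any library.

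Some receptor genes were called, beside 11.5% of all tested genes in the KO and 4.41% in the WT morphine comparison. Of 3 tested dopamine receptor genes other than Drd2, 0 were called in either morphine comparison by edgeR, DESeq2 or limma-voom, and 0 had an unadjusted p under 0.05. Of 8 adrenergic receptor genes, Adrb1 fell in both genotypes (-0.27 ± 0.08 in KO, edgeR adjusted p = 0.0325, and -0.30 ± 0.08 in WT libraries, edgeR adjusted p = 0.0329), and Adra1b rose in KO libraries (0.58 ± 0.16, edgeR adjusted p = 0.0294). Both Adrb1 calls were lost without several single libraries (edgeR adjusted p up to 0.09 in KO and 0.103 in WT), and that of Adra1b without KO morphine 2 or 4 or any KO naive library (up to 0.0949). Of 7 tested nicotinic subunit genes other than Chrna6, 1 rose and 1 fell in KO libraries. Chrnb3, whose product joins the alpha6 subunit in receptors of dopamine neurons and whose gene lies 3481 bases from Chrna6 on the other strand, rose by 0.58 ± 0.12 (edgeR adjusted p = 0.00541). Its levels were 6.33, 7.24, 5.03 and 6.47 CPM in KO morphine and 5.05, 4.15, 4.36 and 3.25 CPM in KO naive libraries, overlapping by 1 library. Chrna4 fell by 0.26 in KO libraries (edgeR adjusted p = 0.00482). In WT libraries 0 of the 7 were called by edgeR, DESeq2 or limma-voom, with 0 at an unadjusted p under 0.05, and the same held for 7 tested genes of retinaldehyde metabolism. In KO libraries 0 of those 7 were called in edgeR, DESeq2 or limma-voom, with 1 at an unadjusted p under 0.05.

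**Figure D4:**
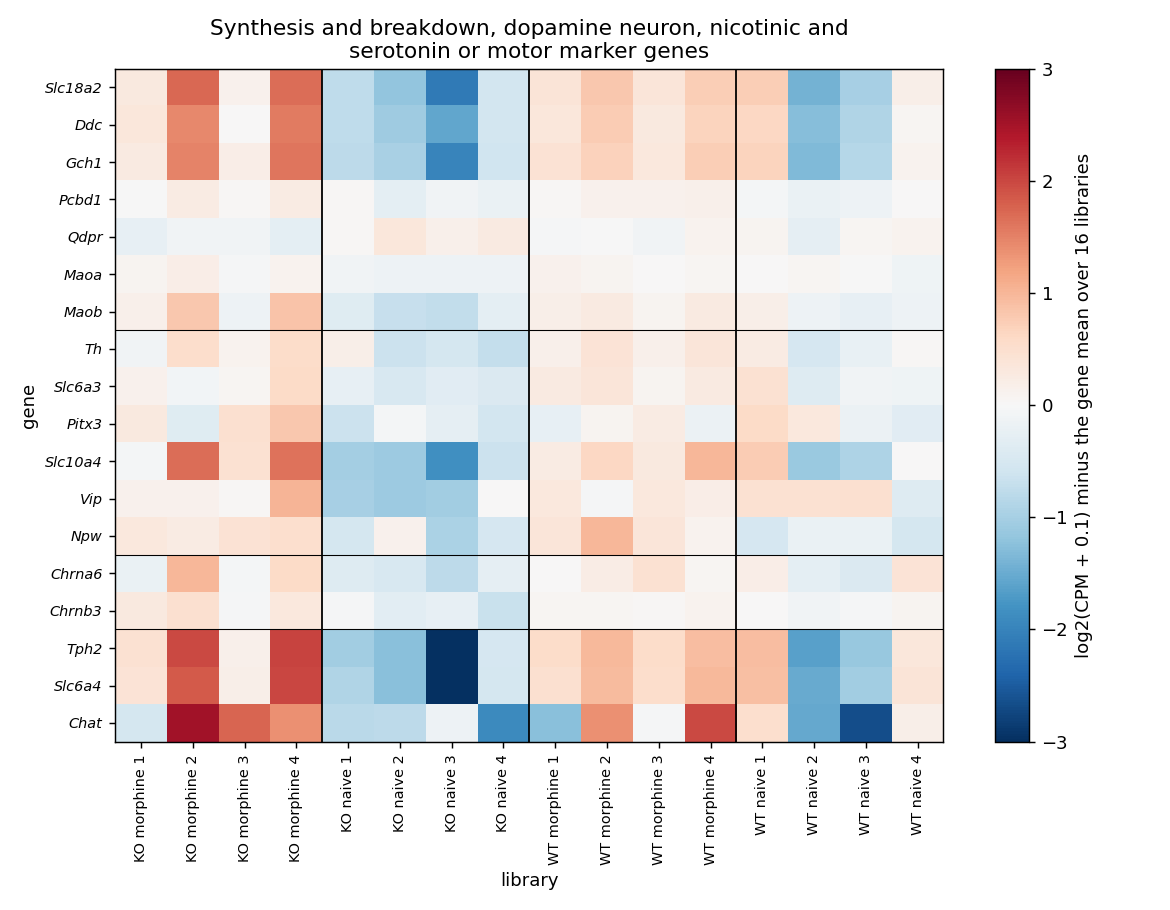
Level of 18 genes (rows) in each library (columns, grouped), as log2(CPM + 0.1) minus the gene's mean over the 16 libraries; colours are clipped at 3 either way. Slc18a2, Ddc, Gch1 and Slc10a4 follow Tph2 and Slc6a4, highest in KO morphine 2 and KO morphine 4, while Th and Slc6a3 change less.

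Markers of other neurons near the periaqueductal gray moved in the same comparison. Of 8 serotonin neuron markers, 6 rose in KO morphine against KO naive libraries, beside 5.67% of all tested genes called higher. The summed level of the 8 was 412 to 1238 CPM in KO morphine and 127 to 292 CPM in KO naive libraries. Maob and Slc22a3 are in both this list and that of synthesis, storage and breakdown. The 6 calls became 2 without KO morphine 2 or KO morphine 4, 3 without KO naive 1 or 3, 1 without KO naive 2 and 0 without the 3 libraries high in Dbh, where the list median was 0.68, against 1.32 with all libraries. The summed level was 504 to 646 CPM in WT morphine and 197 to 631 CPM in WT naive libraries, with 0 of 8 called in edgeR, DESeq2 or limma-voom and 0 at an unadjusted p under 0.05. In edgeR the interaction called 0 of the 8. In KO naive against WT naive libraries 0 of the 8 were called (median -0.515), beside 0.906% of tested genes. Tph2, the serotonin-making enzyme, had 191, 544, 154 and 568 CPM in KO morphine and 67.2, 57.9, 13.6 and 98.1 CPM in KO naive libraries. No serotonin marker was at 0 in any library. Mnx1, a motor neuron factor, had no count in any library. Of 5 tested motor and cholinergic markers 1 rose, Prph, with a summed level of 44.4 to 117.9 CPM in KO morphine, 31.1 to 47.4 CPM in KO naive, 36.7 to 125.8 CPM in WT morphine and 32.8 to 65.2 CPM in WT naive libraries. Chat had 2.15, 18.7, 10.9 and 8.38 CPM in KO morphine and 1.77, 1.78, 2.81 and 0.77 CPM in KO naive libraries. The Dbh level was not ordered like Tph2: WT morphine 3 had the lowest Tph2 level of the WT morphine libraries (201.5 CPM), and KO morphine 2 and 4 had similar Tph2 levels with Dbh at 17.0 and 1.52 CPM. Of 5 tested cerebellar markers 0 were called in the KO comparison by edgeR, DESeq2 or limma-voom, with 0 at an unadjusted p under 0.05. The part of these other neurons in the results was not tested. In bulk tissue, more cells of a kind in a punch cannot be told apart from more RNA of a gene in each cell.

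Relations among the dopamine-side genes were loose. Over the 16 libraries, with group means subtracted, Th varied with Drd2 (Pearson's r = 0.578, permutation p = 0.018; Spearman's rho = 0.591, permutation p = 0.018), with Slc6a3 (r = 0.596, permutation p = 0.015; rho = 0.615, permutation p = 0.013) and with Chrna6 (r = 0.561, permutation p = 0.024; rho = 0.565, permutation p = 0.025). After adjustment over 21 pairs of genes these permutation p values were 0.0614 to 0.0777, past no threshold. Without the 2 libraries farthest from the median of Th, KO naive 1 and WT naive 1, r was 0.727, 0.481 and 0.633. Slc6a3 and Chrna6 did not vary together (r = 0.118, permutation p = 0.66, adjusted 0.734; rho = -0.015, permutation p = 0.96, adjusted 0.96; r = -0.183 without the 2 farthest libraries). Drd2 and Aldh1a1 gave r = 0.619 (permutation p = 0.0088, adjusted 0.0463) and rho = 0.647 (permutation p = 0.0083, adjusted 0.0701), and r = 0.599 without the 2 farthest libraries. Aldh1a1 with Th gave r = 0.287 (permutation p = 0.28, adjusted 0.345) and rho = 0.226 (permutation p = 0.4, adjusted 0.557). With Slc6a3 it gave r = 0.212 (permutation p = 0.43, adjusted 0.504) and rho = -0.047 (permutation p = 0.86, adjusted 0.907). Which cells gave the Aldh1a1 reads was not tested. Reads of Th per read of Slc6a3 ranged from 3.68 in KO naive 4 to 6.81 in KO morphine 2, with a median of 4.23, and KO naive 1 was next at 6.01.

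Of 13612 genes at or above 0 in mean log2 CPM, those whose deviations from the group means were most like Th over the 16 libraries were Cda (r = 0.895), Pdyn (0.887), Pcbd1 (0.869), Cpne7 (0.868), Cbln4 (0.851) and Fam20b (0.849). For Slc6a3 they were Mettl1 (r = 0.885), Exoc8 (0.847), Ube2r2 (0.837), Cidea (0.832), Atp2c2 (0.83) and Zfp182 (0.813). For Dbh they were Fgfr1 (r = 0.886), Mpdz (0.885), Dpm2 (0.856), Nos1 (0.848), Otp (0.848) and Anks3 (0.846). Slc6a2 lay under 0 in mean log2 CPM and was not among the genes compared. Its r with Dbh over the 16 libraries was higher, at 0.976, and 0.944 without KO morphine 2 and WT morphine 3. How far this ranking depends on the 3 libraries high in Dbh was not tested. The highest of so many values are large by selection, and all genes of a library share its depth and dissection, so these are descriptions of likeness.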

How the data were processed

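The deposited files hold raw whole-number read counts per gene, with HTSeq, mm10 and limma named by the submitters' processing notes. The sources used here do not give the aligner, the annotation or the strand setting. Per the labels' protocols, TruSeq v2 libraries were made from TRIzol RNA. HTSeq's tallies outside genes, 38.2 to 40.6% of a library's total, stayed out of library sizes and tests. The labels call the libraries biological replicates and name no batch.

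Gene names, positions and merged exon lengths came from GENCODE M21 (GRCm38, the assembly of mm10), which matched 37607 of 38924 identifiers. After filterByExpr (minimum count 10) and TMM scaling, the quasi-likelihood test of edgeR (edgeR 4.0.16, limma 3.58.1, DESeq2 1.42.0, R 4.3.3) was run on all 16 libraries together, 1 coefficient for each group. The threshold was a Benjamini-Hochberg adjusted p under 0.05 over all genes tested, and the common biological coefficient of variation was 0.0835. SE is the log2 fold change divided by the root of its F statistic. Correlations used log2 CPM (prior count 2) and 100000 permutations. The script was tested on simulated counts with known changes. Promoters were RefSeq's, on GRCm38.p6.

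The members and gene lists were chosen with earlier results of these data known. All 8 members are named. List genes are named when called, up to 6 per list and comparison by smallest p, other names being marked as chosen after their values were seen. A few called list genes are left out of the text. The 6 genes most like Th, Slc6a3 and Dbh are named by Pearson's r. Alternatives were DESeq2's size factors, a minimum of 1 CPM in 8 libraries or no filter, limma-voom, the Wald test of DESeq2, a replicate block, fits of only the groups compared, and leaving out each library. Leaving out KO morphine 2, KO morphine 4 and WT morphine 3 together was added after the data were seen. Exact permutation tests of 4 against 4 cannot go below p = 0.0286.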

Additional observations from a re-analysis of the deposited data

Results flagged for a closer look

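Of 32 sets of 4 libraries (8 genes in 4 groups), 7 held a library far from the other 3 by Dixon's criterion on the gap to the nearest library over the range. The criterion picks about 1 in 20 sets of independent, normally distributed values. Counts near 0 are not such values, and the sets share libraries, so 7 of 32 cannot be weighed against that rate. KO morphine 2 stood apart for Dbh (17.0 CPM), Slc6a2 (21.4 CPM) and Phox2a (0.423 CPM). WT morphine 3 stood apart for Dbh (2.80 CPM) and Slc6a2 (3.08 CPM). KO naive 1 stood apart for Th (24.7 CPM, against 13.2 to 15.1 CPM in the other KO naive libraries). WT naive 3 stood apart for Phox2a (0.0198 CPM), which is a single read beside libraries with none.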

How the results depend on the processing

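Over all alternatives, the 895 refitted values of the 7 genes kept their direction and their side of the threshold in 802 cases, and 55 lost a call, 13 gained one and 25 changed sign. Most of these results were not called in the main fit, so they had no call to lose. Leaving out 1 library lost the averaged morphine call of Dbh in 14, Th in 11, Chrna6 in 9 and Slc6a3 in 0 of 16 fits. In KO it lost that of Chrna6 in 5 and Slc6a3 in 3 of 8 fits. The call of Chrna6 in KO libraries was lost with no filter, with limma-voom and with only the groups compared (adjusted p = 0.0625, 0.0504 and 0.0503). With no filter the averaged morphine calls of Th, Chrna6 and Dbh were lost (adjusted p = 0.0699, 0.0750 and 0.0774). Genes called over all 18111 tested were 798 for morphine in WT, 2082 for morphine in KO, 164 for KO against WT in naive and 96 in morphine libraries, 0 for the interaction, 3089 for morphine averaged and 277 for KO averaged. The Wald test of DESeq2 called 1242 for morphine in WT, 376 and 202 for KO against WT in naive and morphine libraries, 107 for the interaction and 434 for KO averaged. No filter gave 1 interaction, and fitting only the groups compared gave 410 calls for morphine in WT. Without KO morphine 2, KO morphine 4 and WT morphine 3, a setting chosen after seeing the data, the counts were 332 for morphine in KO, 26 for KO against WT under morphine, 9 for the interaction, 1692 for morphine averaged and 145 for KO averaged. In that setting signs turned for Drd2 in KO (-0.038), for Th and Chrna6 in KO morphine against WT morphine (-0.31 and -0.23) and for the Th interaction (-0.037), and Dbh and Slc6a2 were not tested. With limma-voom signs turned for Slc6a3 in KO morphine against WT morphine (0.011) and for Dbh and Slc6a2 in KO averaged (-0.60 and -0.80). The cause of these changes was not tested. Leaving out 1 library at a time gave 378 to 1252 calls for morphine in WT, 1037 to 2260 for morphine in KO, 68 to 210 and 49 to 114 for KO against WT in naive and morphine libraries, 0 to 56 interactions, 2399 to 3302 for morphine averaged and 216 to 298 for KO averaged. It took signs across 0 in KO morphine against WT morphine for Th (-0.074 to 0.15), Slc6a3 (-0.20 to 0.047), Chrna6 (-0.04 to 0.37), Dbh (-0.56 to 5.34) and Slc6a2 (-0.38 to 5.82), in WT for Dbh (-0.70 to 2.74) and Slc6a2 (-1.53 to 2.11), for the Drd2 interaction (-0.093 to 0.057) and in KO averaged for Dbh (-1.12 to 1.83) and Slc6a2 (-1.24 to 1.86). Replicate numbers did not pair the libraries: over 24 same-numbered pairs the correlation of deviations was -0.28 to 0.13, over 0.1 in 3, and in 5 the best match had the same number. With the number as a replicate block, 512 genes were called for morphine in WT and 89 for KO against WT in naive libraries, and Th and Dbh averaged over genotypes were at adjusted p = 0.0571 and 0.0723. Depth limits Phox2a, Dbh and Slc6a2 in most libraries.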

Other observations

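Genes outside the 8, singled out after their values were seen, were also high in libraries with much Dbh. Chrna5, a nicotinic subunit gene, had 0.22, 2.06, 0.35 and 0.80 CPM in KO morphine and 0.32, 0.33, 0.25 and 0.26 CPM in KO naive libraries. It had 0.39, 0.43, 0.75 and 0.45 CPM in WT morphine and 0.45, 0.21, 0.16 and 0.47 CPM in WT naive libraries, so that its 3 highest libraries were the 3 highest for Dbh. Gal, the galanin precursor found in many locus coeruleus neurons, was highest in KO morphine 2 (3.12 CPM), with 0.50 to 1.65 CPM in all other libraries.

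Among the receptors for noradrenaline and adrenaline, Adra2a, whose product is also the autoreceptor of noradrenaline neurons, had the highest level per kilobase (6.64 ± 0.58 CPM, SD over 16 libraries), followed by Adra1b (5.10 ± 1.14) and Adra2c (2.87 ± 0.18). Among dopamine receptors Drd2 (7.56 ± 0.72 CPM per kilobase) stood above Drd5 (1.00 ± 0.18) and Drd1 (0.71 ± 0.17), and its lowest library (6.12) lay above the highest of either (1.34 and 1.12).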
